A study of Mus musculus with 16 samples.

Results

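The solute carriers of this account are 112 genes of the Slc families that were expressed in CD11b+ cells sorted from mouse tumours. The members were chosen by their counts, as the genes whose symbol begins with Slc and a number and that had at least 10 raw counts in 8 or more of the 16 libraries, without 6 genes left out by name (Slc2a1, Slc16a3, Slc7a2, Slc11a1, Slc40a1 and Slc48a1). The count tables list 373 such symbols among 24421 genes, of which 116 passed the count rule, 4 of the 6 genes left out among them. The 24h and 72h libraries came from C57BL/6 mice carrying the Kaede transgene, whose protein turns from green to red fluorescence under violet light, 8 to 14 weeks old, with subcutaneous MC38-Ova tumours (a colon adenocarcinoma line that expresses ovalbumin) and no treatment (labelled as control). Tumours were illuminated once and collected 24h or 72h later, so that Kaede-red cells had been in the tumour since illumination and Kaede-green cells had entered after it. Each group, Kaede-green and Kaede-red at 24h and at 72h, holds 4 libraries of live cells sorted as CD45+, TER119-, Kaede+, CD11b+ and NK1.1-. The gate takes other CD11b+ cells besides macrophages, and red cells keep some green signal. The study describes the libraries as tumours of separate mice, but the sources do not say which red and green libraries share a mouse, and the labels tie none to a mouse. All were labelled with the same batch.

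Solute carriers are membrane proteins that move amino acids, sugars, ions, metals, nucleosides and organic acids across the plasma membrane and the membranes of organelles, some as exchangers and some driven by the sodium or proton gradient. Macrophages use them to take up amino acids for protein and glutathione synthesis, to return the products of digested cells from the lysosome to the cytosol, and to move zinc, iron and copper. The Slc25 family sits in the inner mitochondrial membrane and exchanges nucleotides, phosphate and metabolites, and the Slc35 family carries nucleotide sugars into the Golgi and endoplasmic reticulum. By family the 112 members fell into 19 carriers of amino acids and peptides, 18 of metals, 3 of nucleosides, 23 mitochondrial Slc25 carriers, 15 of the Slc35 family, 16 of inorganic ions, 5 of sugars and polyols, 6 of vitamins, choline and lipids, 4 of other organic solutes, and 3 genes that bear an Slc symbol without being carriers (Slc9a3r1, Slc7a6os and Slc4a1ap).

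Depth bore on this list. Kaede-green libraries held 468092 to 912689 counts outside Rn45s, the ribosomal RNA precursor, and Kaede-red libraries 758192 to 5472477, with Rn45s at 79.0% to 93.4% of the counts in green and 55.8% to 84.9% in red. The members together took 1419 to 3119 reads in a green and 4211 to 42180 in a red library, and 43 to 87 members reached 10 counts in a green library against 103 to 112 in a red one. The rule therefore let genes in more readily through the red libraries: 25 members reached 10 counts in all 16 libraries, and 3 (Slc11a2, Slc25a1 and Slc45a4) did so in the 8 red libraries and in no green one. At the edge of the rule 12 members had exactly 8 such libraries, the lowest by mean over all libraries being Slc25a38 (1.45 CPM), Slc20a2 (1.65), Slc25a33 (1.67), Slc38a9 (1.76) and Slc35e2 (1.79). Another 8 symbols just missed it with 7, the highest by mean being Slc9a9 (3.27 CPM), Slc16a7 (1.64), Slc2a6 (1.62), Slc12a2 (1.505) and Slc39a13 (1.25). Levels are given in CPM, counts scaled to a common library size with TMM factors, which allows for the different share that abundant RNAs take. Intervals and errors cover these libraries only, and in bulk samples fewer cells of a type and less RNA per cell cannot be told apart.

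The most abundant member per kilobase of exon was Slc25a5, a mitochondrial exchanger of ADP and ATP, at 23.8 CPM per kilobase over all libraries. Next by this measure came the zinc importer Slc39a1 (13.3), Slc3a2, the heavy chain that several amino acid exchangers pair with (11.9), the concentrative nucleoside transporter Slc28a2 (9.27), and the lysosomal peptide and histidine carrier Slc15a3 (7.41). The order went on with the scaffold gene Slc9a3r1 (6.65), the neutral amino acid exchanger Slc7a8 (4.45), the lysosomal nucleoside carrier Slc29a3 (4.38), the second ADP/ATP exchanger Slc25a4 (4.36) and the Golgi and endoplasmic reticulum zinc carrier Slc39a7 (4.13). Slc7a8, Slc29a3, Slc25a4 and Slc39a7 lie close together in this order, and it is a description of means over libraries of all groups. Slc25a4 and Slc25a5 are close paralogues with many pseudogene copies, and Slc28a2 has a near-identical copy listed separately as Gm14085, so the split of reads within each pair is uncertain.

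Whether carrier RNA differed between cells in the tumour since illumination and cells that entered after it was read from Kaede-red against Kaede-green libraries over both times. In this comparison 16 members had higher and 3 had lower levels in red libraries with edgeR's quasi-likelihood test and Benjamini-Hochberg adjustment over 9642 genes. Those 16 are 14.3% of the members, where 9.96% of all tested genes were called higher, or 11.1% of the 7770 tested genes that pass the same count rule. The 3 lower ones are 2.68% of the members, where 10.3% of all tested genes and 12.0% of those past the count rule were called lower. The members' median log2 fold change was 0.06, the same as over all genes tested. Among the 25 members with 10 counts in every library 4 were higher and 3 lower, and among the 69 with 10 counts in at least 4 green and 4 red libraries 9 were higher and 3 lower. The shares of all genes at these depths were not taken, so these counts cannot be set against the shares above. Scaled by library size alone, without TMM, the median of all genes moved to 2.2 and all 112 members were called higher, so that rises and falls are relative to the median gene. The share of Rn45s differed between red and green libraries as given above. With that share as a covariate the fit called 1 member, Slc37a2, in place of 19, and 156 of all tested genes in place of 1950. The effect of the share and of the colour cannot be told apart where they move together.

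**Figure D1:**
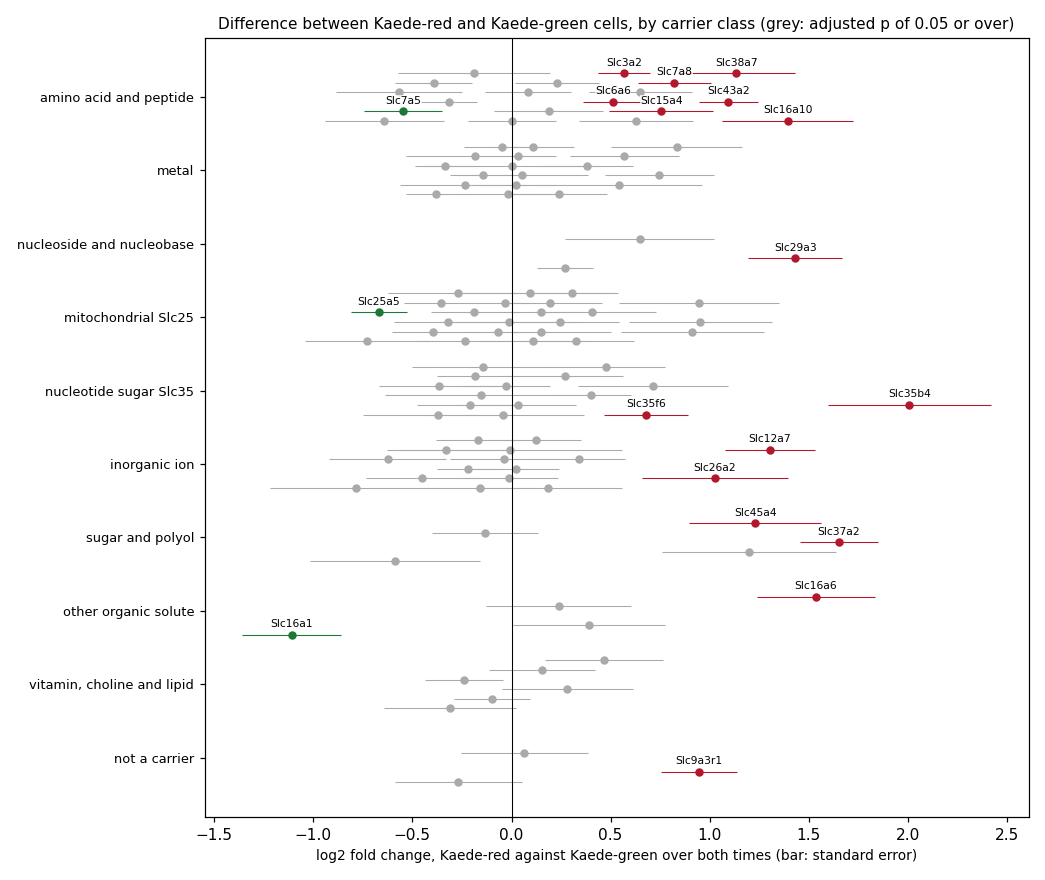
Log2 fold change of each of the 112 members between red and green libraries of both times (x axis), with its standard error as a bar, by carrier class (y axis, points spread vertically for legibility). Red points are the 16 members called higher and dark green points the 3 called lower at an adjusted p under 0.05. The amino acid row holds 7 red points and 1 green point, and the metal row holds grey points only.

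The amino acid and peptide carriers held the most calls by number, 7 higher (36.8%) and 1 lower (5.26%) of 19, where the 5 sugar carriers held 2 higher (40%) and the 4 carriers of other organic solutes 1 higher and 1 lower. Of the 2 sugar calls, 1 (Slc45a4) met the count rule through red libraries alone. The amino acid class had a median log2 fold change of 0.23. Their summed level was 186, 217, 206 and 206 CPM in the green and 233, 230, 226 and 243 CPM in the red libraries at 24h, and 209, 192, 225 and 222 against 325, 274, 281 and 289 CPM at 72h. The red libraries were above the green ones at each time without overlap. The 18 metal carriers held no call, with a median log2 fold change of 0.03. Metal carriers summed to 129, 120, 126 and 111 CPM in green and 118, 116, 130 and 122 CPM in red libraries at 24h and to 151, 145, 121 and 123 and 128, 123, 124 and 110 CPM at 72h, which overlapped at both times. The 23 Slc25 carriers held 1 call, the fall of Slc25a5, with a median of 0.09 and sums of 215, 164, 147 and 135 and 133, 134, 136 and 132 CPM at 24h and 135, 137, 162 and 152 and 132, 145, 144 and 129 CPM at 72h. Of the 3 nucleoside carriers 1 was called, Slc29a3. Their sums were 46.8, 56.4, 36.5 and 53.05 and 81.8, 79.3, 56.3 and 58.99 CPM at 24h, which met at the edges, and 44.1, 50.9, 47.2 and 70.8 and 109, 90.5, 92.98 and 104 CPM at 72h, which did not overlap. The class sums are descriptions, with no test, and each is led by its few most abundant genes.

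**Figure D2:**
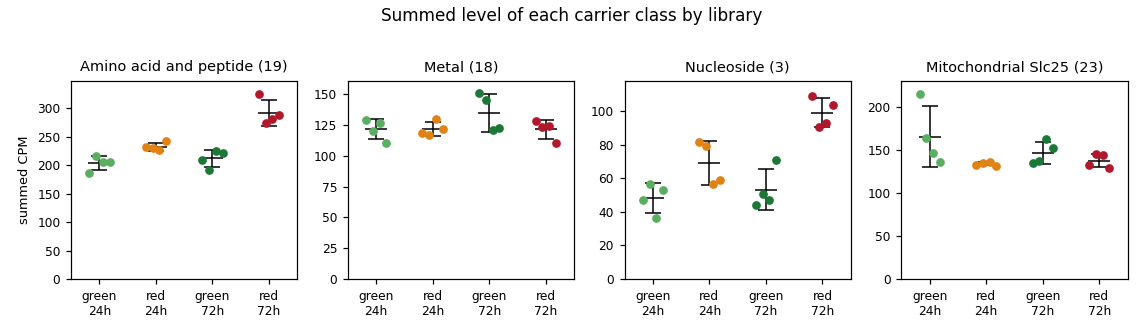
Summed CPM (y axis, from 0) of the amino acid and peptide, metal, nucleoside and mitochondrial Slc25 carriers in each library, by group (x axis). Points are single libraries and the black marks the mean and SD of 4. The amino acid and the nucleoside sums are highest in the Kaede-red libraries at 72h, and the metal sums of red and green libraries overlap.

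Slc3a2 (GRCm38 chr19:8706882-8723369, minus strand), the heavy chain of the heteromeric amino acid exchangers, was 39.6, 42.5, 29.9 and 27.3 CPM in the green and 57.5, 54.03, 44.5 and 53.6 CPM in the red libraries at 24h, and 34.2, 30.2, 34.03 and 34.2 CPM in the green and 52.98, 50.5, 42.7 and 45.7 CPM in the red libraries at 72h. All 8 red libraries lay above all 8 green ones. The log2 fold change over both times was 0.57 ± 0.13 (SE), adjusted p = 0.00182, in edgeR's quasi-likelihood test. Of its main light chains Slc7a8 was called higher and Slc7a5 lower. Slc7a8 (chr14:54722209-54781946), which exchanges small and large neutral amino acids, was 17.8, 15.9, 15.1 and 11.4 CPM in the green and 26.5, 26.7, 13.6 and 17.02 CPM in the red libraries at 24h, and 10.9, 9.44, 23.3 and 21.5 CPM in the green and 42.6, 32.05, 38.6 and 34.1 CPM in the red libraries at 72h. The groups overlapped at 24h and were apart at 72h, where every red library was above every green one. Its log2 fold change was 0.82 ± 0.18 (SE), adjusted p = 0.00124 over both times, 0.49 ± 0.27 (SE), adjusted p = 0.301 at 24h and 1.15 ± 0.25 (SE), adjusted p = 0.00138 at 72h. Slc7a5 (chr8:121881150-121907694), the exchanger of large neutral amino acids for glutamine, was 13.4, 11.04, 18.1 and 13.5 CPM in the green and 7.18, 6.92, 14.5 and 17.3 CPM in the red libraries at 24h, and 9.47, 10.7, 15.8 and 14.3 CPM in the green and 9.21, 6.92, 6.34 and 6.58 CPM in the red libraries at 72h. The 24h groups overlapped widely and the 72h red libraries were all below the green ones, if narrowly. Over both times it fell by 0.55 on the log2 scale (SE 0.20, adjusted p = 0.0445 in edgeR), with adjusted p up to 0.116 and no call without any 1 of Kaede-green 24h replicate 3, Kaede-red 24h replicates 1 or 2, Kaede-green 72h replicates 3 or 4 or Kaede-red 72h replicates 2, 3 or 4. The 72h fall was by 0.79 (SE 0.27, adjusted p = 0.0417), with adjusted p up to 0.137 and no call without any 1 of Kaede-red 24h replicate 3, Kaede-green 72h replicates 3 or 4 or Kaede-red 72h replicates 2, 3 or 4. With replicate number as a block the 72h fall was not called either. With no filter on low counts neither fall was called. With at least 10 counts in every library the fall over both times was not called.

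No promoter window was found for the light chain Slc7a5. The promoter stretches of 4 genes are shown here because they belong to the heavy chain and to 3 of its other light chains. They are RefSeq windows of 300 bases on GRCm38.p6, from 250 bases before to 50 after a transcription start, 5′ to 3′ on the gene's strand. Capitals mark matches, on either strand, to the amino acid response core TGATGNAA, or to the metal response core TGCACNC or TGCGCNC.
Slc3a2 (chr19:8713848-8714147): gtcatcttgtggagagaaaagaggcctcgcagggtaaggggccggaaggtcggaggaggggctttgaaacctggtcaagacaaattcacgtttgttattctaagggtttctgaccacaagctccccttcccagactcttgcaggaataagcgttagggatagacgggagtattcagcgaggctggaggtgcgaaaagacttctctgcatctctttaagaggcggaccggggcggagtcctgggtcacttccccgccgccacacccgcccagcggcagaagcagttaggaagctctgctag
Slc7a8 (chr14:54781837-54782136): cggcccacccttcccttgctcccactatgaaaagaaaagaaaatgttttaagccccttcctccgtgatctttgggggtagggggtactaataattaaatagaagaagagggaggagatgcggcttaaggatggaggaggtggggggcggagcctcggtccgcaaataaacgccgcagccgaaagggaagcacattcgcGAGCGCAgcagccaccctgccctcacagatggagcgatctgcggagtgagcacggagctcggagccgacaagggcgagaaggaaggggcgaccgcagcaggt
Slc7a7 (chr14:54417895-54418194): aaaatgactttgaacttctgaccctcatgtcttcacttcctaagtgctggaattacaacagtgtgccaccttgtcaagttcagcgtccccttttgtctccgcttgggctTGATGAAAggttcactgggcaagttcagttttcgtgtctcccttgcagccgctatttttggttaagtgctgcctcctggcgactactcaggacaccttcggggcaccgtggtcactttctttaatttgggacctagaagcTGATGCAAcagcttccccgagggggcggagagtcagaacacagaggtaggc
Slc7a11 (chr3:50443564-50443863): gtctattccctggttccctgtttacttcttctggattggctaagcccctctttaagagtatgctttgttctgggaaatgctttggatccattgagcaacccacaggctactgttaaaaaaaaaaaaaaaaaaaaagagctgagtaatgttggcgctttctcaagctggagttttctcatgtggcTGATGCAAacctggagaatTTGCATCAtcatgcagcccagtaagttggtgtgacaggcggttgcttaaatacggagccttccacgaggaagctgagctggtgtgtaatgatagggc
The amino acid response core was in 3.97% of the 32841 windows of all genes and in 4 of 120 windows of the 87 members that have one (3.33%). Those 4 belong to 3 members, Slc7a7, Slc7a11 and Slc50a1. The Slc7a11 window holds TGATGCAA at position -66 from the start and its reverse complement TTGCATCA at position -47. The Slc3a2 window has neither core, and the Slc7a8 window has only a metal response core. A match is a run of letters and not a shown site of binding.

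The other light chains shown by the promoters were read in the same way. Slc7a11, the cystine and glutamate exchanger, was at 2.86 to 6.94 CPM in green and 4.13 to 7.35 CPM in red libraries at 24h and at 3.40 to 5.48 and 3.77 to 4.78 CPM at 72h, with a log2 fold change over both times of 0.00 ± 0.22 (SE). Slc7a7, which with Slc3a2 exports cationic amino acids, was 2.79, 3.68, 6.63 and 2.86 CPM in the green and 4.82, 4.49, 5.43 and 4.06 CPM in the red libraries at 24h, and 3.64, 1.52, 0.972 and 4.67 CPM in the green and 6.09, 6.44, 6.34 and 5.04 CPM in the red libraries at 72h. It passed the test at 72h, where red libraries were all above green ones (1.16 ± 0.36 (SE), adjusted p = 0.0255, no call without any 1 of Kaede-green 72h replicates 2 or 3 or Kaede-red 72h replicates 1 or 2), and not over both times (0.65 ± 0.26 (SE), adjusted p = 0.0736). Slc7a7 overlaps Oxa1l in the annotation, and reads of the overlap cannot be assigned without strand. Slc7a6, its relative, was at 4.41 and 2.74 CPM (means at 24h) and 1.97 and 1.47 CPM at 72h, and was not called (-0.57 ± 0.32 (SE), adjusted p = 0.222).

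Facilitative carriers, which move amino acids down their gradient, were among the members called higher. Slc43a2 (chr11:75531694-75577575), a carrier of branched-chain amino acids, phenylalanine and methionine, was 9.47, 13.5, 11.5 and 7.35 CPM in the green and 21.02, 19.8, 16.8 and 16.2 CPM in the red libraries at 24h, and 11.3, 12.8, 13.1 and 11.2 CPM in the green and 35.1, 28.9, 29.1 and 32.7 CPM in the red libraries at 72h. No red library overlapped a green one at either time. Its log2 fold change was 1.09 ± 0.15 (SE), adjusted p = 1.54e-06 over both times, 0.81 ± 0.22 (SE), adjusted p = 0.0167 at 24h (no call without any 1 of Kaede-green 24h replicates 1 or 4 or Kaede-red 24h replicate 1) and 1.38 ± 0.20 (SE), adjusted p = 1.28e-05 at 72h. Slc16a10 (chr10:40033532-40142258), a uniporter of aromatic amino acids, was 2.79, 4.90, 2.30 and 3.67 CPM in the green and 6.31, 7.04, 5.07 and 5.74 CPM in the red libraries at 24h, and 0, 0, 2.43 and 2.85 CPM in the green and 7.54, 6.54, 3.62 and 4.31 CPM in the red libraries at 72h. Red and green libraries did not overlap within a time, and 2 of the 4 green libraries at 72h had no read of it. Its log2 fold change was 1.39 ± 0.33 (SE), adjusted p = 0.00237 over both times and 1.94 ± 0.48 (SE), adjusted p = 0.00435 at 72h.

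Sodium-coupled and lysosomal amino acid carriers were mixed. The taurine transporter Slc6a6 (chr6:91684053-91759066), chosen for description after its values were seen, was 17.3, 31.5, 29.1 and 37.95 CPM in the green and 30.6, 26.7, 29.5 and 31.7 CPM in the red libraries at 24h, and 24.4, 18.3, 27.95 and 32.2 CPM in the green and 59.8, 42.5, 46.8 and 57.1 CPM in the red libraries at 72h. At 24h the groups overlapped, and at 72h all red libraries were above all green ones (1.00 ± 0.21 (SE), adjusted p = 0.000982). Slc38a7, a lysosomal glutamine and asparagine exporter, was 2.79, 1.23, 2.04 and 0.816 CPM in the green and 5.17, 4.25, 3.62 and 3.09 CPM in the red libraries at 24h, and 1.09, 1.52, 2.92 and 1.56 CPM in the green and 4.37, 4.20, 2.42 and 3.57 CPM in the red libraries at 72h. It was called higher over both times (1.13 ± 0.30 (SE), adjusted p = 0.00553), with separate groups at 24h and overlapping ones at 72h. Slc38a2, a sodium-coupled importer of small neutral amino acids, was 7.80, 12.7, 15.8 and 8.57 CPM in the green and 6.74, 11.05, 13.9 and 14.2 CPM in the red libraries at 24h, and 9.11, 15.2, 16.8 and 12.96 CPM in the green and 5.58, 7.85, 7.85 and 10.5 CPM in the red libraries at 72h. It passed the test only as a fall at 72h (by 0.77 on the log2 scale, SE 0.27, adjusted p = 0.0426) with overlapping libraries, and was not called without any 1 of Kaede-red 24h replicates 2 or 3, Kaede-green 72h replicates 2, 3 or 4 or Kaede-red 72h replicates 1, 2 or 3. With no filter on low counts the fall of Slc38a2 was not called either. Slc15a4, a lysosomal histidine and peptide carrier, ranged from 0 to 8.04 CPM in green and from 6.77 to 11.02 CPM in red libraries (0.75 ± 0.26 (SE), adjusted p = 0.0396), and was not called without any 1 of Kaede-green 24h replicates 3 or 4, Kaede-red 24h replicates 1 or 2, Kaede-green 72h replicates 1 or 2 or Kaede-red 72h replicates 2 or 3. The glutamine carriers Slc1a5 (-0.64 ± 0.30) and Slc38a1 (0.19 ± 0.27) and the lysosomal arginine sensor Slc38a9 (-0.19 ± 0.38) were not called over both times.

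**Figure D3:**
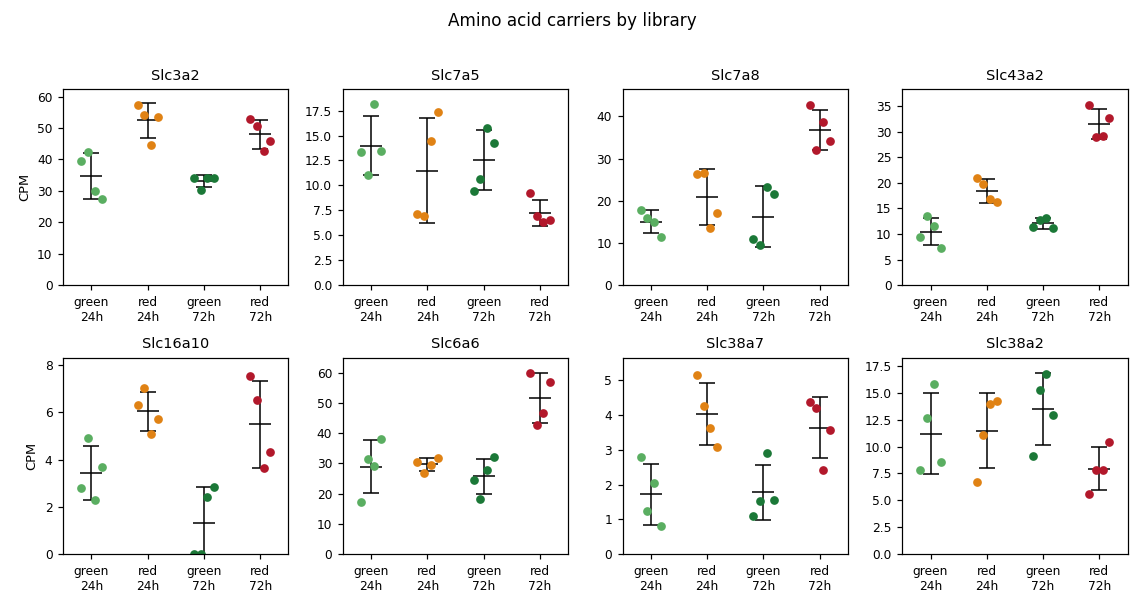
CPM (y axis, from 0, its scale differing between panels) of 8 amino acid carriers in each library, by group (x axis). Points are single libraries and the black marks the mean and SD of 4. Slc3a2 and Slc43a2 are higher in all red than in all green libraries, Slc7a8 and Slc6a6 are highest in Kaede-red cells at 72h, and Slc7a5 and Slc38a2 are lowest there.

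No metal carrier passed edgeR's test in any of the comparisons. Slc39a1 (chr3:90248172-90253612), a plasma membrane zinc importer, was 32.3, 30.2, 35.2 and 21.2 CPM in the green and 29.1, 26.8, 23.7 and 23.9 CPM in the red libraries at 24h, and 60.8, 39.9, 33.1 and 33.5 CPM in the green and 31.04, 29.7, 31.4 and 21.03 CPM in the red libraries at 72h. At 72h every red library was below every green one, but neither this difference (-0.56 ± 0.21 (SE), adjusted p = 0.0638) nor that over both times (-0.38 ± 0.15 (SE), adjusted p = 0.0713) passed the test. Slc30a1, the zinc exporter of the plasma membrane and a textbook target of the metal response factor MTF-1, was 23.4, 26.2, 25.5 and 15.9 CPM in the green and 13.4, 14.6, 16.5 and 13.7 CPM in the red libraries at 24h, and 21.1, 26.8, 14.3 and 15.04 CPM in the green and 19.7, 18.8, 20.7 and 17.1 CPM in the red libraries at 72h. Its 24h groups overlapped through green replicate 4 alone (-0.66 ± 0.22 (SE), adjusted p = 0.0639), and at 72h they were intermixed (-0.01 ± 0.21). Of the 18 metal carriers 5 (27.8%) had an unadjusted p under 0.05 over both times, where 32.6% of all tested genes had one. DESeq2, which called 2308 of all genes in this comparison, called 2 of the metal carriers, Slc39a1 and Slc30a1, both lower in Kaede-red cells.

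The Slc30a1 promoter is given because it holds 2 metal response cores (in capitals, on GRCm38.p6, plus strand).
Slc30a1 (chr1:191906531-191906830): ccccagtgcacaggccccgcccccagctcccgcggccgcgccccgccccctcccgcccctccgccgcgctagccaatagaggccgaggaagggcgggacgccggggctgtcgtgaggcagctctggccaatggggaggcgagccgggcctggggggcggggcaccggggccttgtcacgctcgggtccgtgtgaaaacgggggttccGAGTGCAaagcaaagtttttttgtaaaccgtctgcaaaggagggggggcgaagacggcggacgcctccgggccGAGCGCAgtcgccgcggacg
A core of this kind was in 7 of the 15 metal carriers with a window (46.7%), in 38 of the 87 members with one (43.7%) and in 28.2% of all genes with one, and in 1 of 14 amino acid carriers.

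The endosomal iron and manganese importer Slc11a2 was at 0.557 to 2.07 CPM in green and 1.99 to 3.77 CPM in red libraries (0.83 ± 0.33 (SE), adjusted p = 0.0709), and it met the count rule through red libraries alone. The zinc and iron importer Slc39a14 and the copper carriers Slc31a1 and Slc31a2 had log2 fold changes of 0.24 ± 0.24, 0.03 ± 0.19 and -0.05 ± 0.19. These estimates leave room for changes of either sign. Slc39a7, which releases zinc from the endoplasmic reticulum, was at -0.14 ± 0.17. Lists of other genes and of cell type markers are set against the 9.96% of all tested genes called higher and the 10.3% called lower. Among 7 tested genes of metal binding and copper or zinc handling, 1 was higher (Mt1, a metallothionein, 0.75) and 2 lower over both times (Cox17, a mitochondrial copper chaperone, -0.90, and Atox1, a cytosolic one, -0.57).

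Slc29a3 (chr10:60712072-60752794, minus strand), the nucleoside carrier of lysosomes and mitochondria, showed the widest rise of the nucleoside class. It was 5.01, 20.4, 11.5 and 13.1 CPM in the green and 31.4, 31.9, 17.6 and 20.2 CPM in the red libraries at 24h, and 7.29, 7.92, 11.4 and 28.3 CPM in the green and 60.4, 46.6, 31.2 and 64.5 CPM in the red libraries at 72h. The 24h groups overlapped, and the 72h red libraries were all above the green ones, with green replicate 4 close under the lowest red library. The log2 fold change was 1.43 ± 0.24 (SE), adjusted p = 3.39e-05 over both times, 1.00 ± 0.34 (SE), adjusted p = 0.0739 at 24h and 1.87 ± 0.33 (SE), adjusted p = 0.000122 at 72h. Its promoter window, on the minus strand of GRCm38.p6, holds neither core.
Slc29a3 (chr10:60752733-60753032): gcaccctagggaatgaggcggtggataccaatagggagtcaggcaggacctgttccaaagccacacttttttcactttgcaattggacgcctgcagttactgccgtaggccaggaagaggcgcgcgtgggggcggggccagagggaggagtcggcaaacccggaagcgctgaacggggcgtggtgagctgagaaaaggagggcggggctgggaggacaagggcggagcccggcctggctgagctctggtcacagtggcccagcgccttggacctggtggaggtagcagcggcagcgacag
The concentrative carrier Slc28a2 was 41.8, 35.6, 23.2 and 33.9 CPM in the green and 46.9, 43.8, 35.1 and 34.9 CPM in the red libraries at 24h, and 35.7, 41.7, 34.3 and 37.3 CPM in the green and 46.1, 40.7, 57.4 and 35.5 CPM in the red libraries at 72h. It was abundant in every group, with overlapping libraries and a log2 fold change of 0.27 ± 0.14 (SE), adjusted p = 0.191. The plasma membrane carrier Slc29a1 had 0 to 6.12 CPM in green and 2.26 to 4.38 CPM in red libraries (0.65 ± 0.38 (SE), adjusted p = 0.238), and it overlaps Gm17080. Slc29a2 and Slc43a3, a further nucleoside and a nucleobase carrier, did not reach the count rule. Of 11 tested enzymes of nucleoside and purine use, 1 was higher (Tk2, mitochondrial thymidine kinase, 0.98) and 3 lower over both times: Upp1, uridine phosphorylase (-1.21), Pnp, purine nucleoside phosphorylase (-0.45), and Hprt (-4.33). For Hprt 1 library stood far apart, Kaede-green 72h replicate 3, at 13253 CPM where the other green libraries had 22.2 to 142 CPM.

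Between red and green cells over both times 1 of the 23 mitochondrial carriers was called in edgeR, a fall, while DESeq2 called 3, with 2 higher and 1 lower. Slc25a5 (chrX:36795651-36798807), the ADP/ATP exchanger that is the chief form outside muscle, was 82.5, 49.9, 51.8 and 38.8 CPM in the green and 30.2, 33.5, 29.1 and 27.7 CPM in the red libraries at 24h, and 41.2, 45.7, 35.98 and 40.5 CPM in the green and 29.4, 32.05, 30.9 and 26.3 CPM in the red libraries at 72h. All 8 red libraries were below all 8 green ones, and the highest value was that of 1 green library at 24h. It fell by 0.67 on the log2 scale over both times (SE 0.14, adjusted p = 0.000651) and by 0.88 at 24h (SE 0.20, adjusted p = 0.00442), while the difference of -0.46 ± 0.20 at 72h did not pass (adjusted p = 0.108). Slc25a4, its paralogue, was at 6.56 to 19.7 CPM in green and 7.22 to 11.9 CPM in red libraries (-0.35 ± 0.19 (SE), adjusted p = 0.199). The phosphate carrier Slc25a3 was at 14.01 to 29.5 CPM in green and 18.5 to 26.1 CPM in red libraries (-0.03 ± 0.14). The mitochondrial iron importers Slc25a37 and Slc25a28 had log2 fold changes of -0.73 ± 0.31 (adjusted p = 0.0998) and -0.32 ± 0.27 (adjusted p = 0.443). The citrate carrier Slc25a1, which had no green library with 10 counts, was at 0.91 ± 0.36 (SE), adjusted p = 0.0711, and the oxoglutarate carrier Slc25a11 at 0.19 ± 0.26.

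Among 13 tested carriers that are named outside the Slc series, the same comparison called 1 higher and 2 lower. Both subunits of the mitochondrial pyruvate carrier were lower in Kaede-red cells. Mpc1 was 14.5, 19.6, 26.03 and 19.995 CPM in the green and 7.71, 6.92, 7.78 and 7.80 CPM in the red libraries at 24h, and 8.38, 4.87, 12.9 and 8.56 CPM in the green and 4.61, 4.98, 8.60 and 4.24 CPM in the red libraries at 72h. Its red libraries were below the green ones at 24h and overlapped them at 72h. Mpc2 was 13.9, 10.2, 17.9 and 14.3 CPM in the green and 5.43, 7.77, 9.05 and 8.64 CPM in the red libraries at 24h, and 11.3, 17.4, 16.04 and 8.82 CPM in the green and 4.37, 4.30, 7.85 and 3.19 CPM in the red libraries at 72h. Its red libraries were below the green ones at each time. Mpc1 had log2 fold changes of -1.07 ± 0.19 (SE), adjusted p = 9.65e-05 over both times, and Mpc2 of -1.20 ± 0.20 (SE), adjusted p = 3.05e-05. The one higher was Mfsd1, a lysosomal dipeptide carrier (0.51 ± 0.16 (SE), adjusted p = 0.0189). Among 16 tested genes of amino acid response and sensing, 1 was higher, Rragc, a GTPase that recruits mTORC1 to lysosomes (0.59 ± 0.18 (SE), adjusted p = 0.0175). Atf4, the transcription factor of the amino acid response, had -0.13 ± 0.14 (adjusted p = 0.57).

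Carriers of sugars, nucleotide sugars and monocarboxylates gave the 3 largest rises called over both times (Slc35b4, Slc37a2 and Slc16a6) and the largest fall (Slc16a1). Slc37a2 (chr9:37227585-37255738), an exchanger of glucose 6-phosphate for phosphate in the endoplasmic reticulum, was 6.13, 6.13, 3.06 and 2.86 CPM in the green and 15.2, 10.9, 9.23 and 9.93 CPM in the red libraries at 24h, and 4.74, 3.66, 3.16 and 4.41 CPM in the green and 16.2, 13.5, 14.9 and 15.3 CPM in the red libraries at 72h. No red library overlapped a green one. Its log2 fold changes were 1.65 ± 0.20 (SE), adjusted p = 1.87e-07 over both times, 1.38 ± 0.29 (SE), adjusted p = 0.00191 at 24h and 1.92 ± 0.27 (SE), adjusted p = 6e-06 at 72h, and over both times it was 1.31 (adjusted p = 0.0182) with the Rn45s share as a covariate. Slc35b4 (chr6:34153380-34177111), a Golgi carrier of UDP-xylose and UDP-N-acetylglucosamine, was 2.23, 0, 0.255 and 0 CPM in the green and 3.85, 3.28, 1.99 and 2.84 CPM in the red libraries at 24h, and 1.82, 0.914, 2.92 and 1.04 CPM in the green and 6.21, 3.87, 3.77 and 3.95 CPM in the red libraries at 72h. Of the green 24h libraries 2 had no read, and red libraries were all above green ones at 72h. The fitted log2 fold change of 2.01 ± 0.41 (SE), adjusted p = 0.00051 over both times rests on libraries with few counts, and was 3.01 without Kaede-green 24h replicate 1. At 24h it was 2.62 ± 0.68 (SE), adjusted p = 0.0133, 4.63 without that library, and not called without Kaede-green 24h replicate 3. At 72h it was 1.39 ± 0.47 (SE), adjusted p = 0.0368, and not called without any 1 of Kaede-green 72h replicates 1, 2 or 4 or Kaede-red 72h replicates 1, 2 or 4. Slc35f6, a member of the same family named after its values were seen, was called higher as well (0.68 ± 0.21 (SE), adjusted p = 0.0221), though not without any 1 of Kaede-green 24h replicate 3 or Kaede-green 72h replicates 1 or 2.

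The monocarboxylate carriers Slc16a6 and Slc16a1 moved apart. Slc16a6 (chr11:109450855-109473598), which carries ketone bodies and taurine, was 1.67, 2.04, 3.06 and 2.04 CPM in the green and 5.26, 5.22, 4.53 and 4.51 CPM in the red libraries at 24h, and 3.28, 0, 1.70 and 1.56 CPM in the green and 7.30, 5.43, 4.83 and 7.48 CPM in the red libraries at 72h. All red libraries were above all green ones, 1 of which had no read (1.54 ± 0.30 (SE), adjusted p = 0.000248), but Slc16a6 overlaps Amz2 and Arsg. Slc16a1 (chr3:104638668-104658462), the lactate and pyruvate carrier, was 5.57, 7.36, 11.5 and 21.2 CPM in the green and 3.94, 4.01, 10.9 and 10.8 CPM in the red libraries at 24h, and 8.38, 12.5, 7.54 and 15.6 CPM in the green and 3.83, 3.07, 4.53 and 3.76 CPM in the red libraries at 72h. The 24h groups overlapped and the 72h red libraries were all below the green ones. It fell by 1.11 on the log2 scale over both times (SE 0.25, adjusted p = 0.0014) and by 1.56 at 72h (SE 0.35, adjusted p = 0.00179). Slc12a7 (chr13:73733094-73816754), a potassium and chloride cotransporter, was 2.23, 2.86, 1.02 and 2.04 CPM in the green and 6.22, 4.37, 5.25 and 4.32 CPM in the red libraries at 24h, and 2.91, 4.87, 3.65 and 4.15 CPM in the green and 9.10, 8.25, 10.4 and 9.20 CPM in the red libraries at 72h. Red libraries were above green ones within each time (1.30 ± 0.23 (SE), adjusted p = 7e-05), and the difference at 24h (1.38 ± 0.36 (SE), adjusted p = 0.0134) was not called without Kaede-green 24h replicate 3. The scaffold gene Slc9a3r1, no carrier itself, rose by a log2 fold change of 0.95 ± 0.19 (SE), adjusted p = 0.000465. Slc45a4 (1.23 ± 0.33 (SE), adjusted p = 0.00797) and the sulphate carrier Slc26a2 (1.03 ± 0.37 (SE), adjusted p = 0.0468), both named after their values were seen, complete the 16. Slc45a4 met the count rule through red libraries alone. Slc26a2 was not called without any 1 of Kaede-green 24h replicates 3 or 4, Kaede-red 24h replicates 1 or 2, Kaede-green 72h replicates 1, 2 or 3 or Kaede-red 72h replicates 1, 2 or 4. Nor was it called with RLE scaling or with replicate number as a block.

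**Figure D4:**
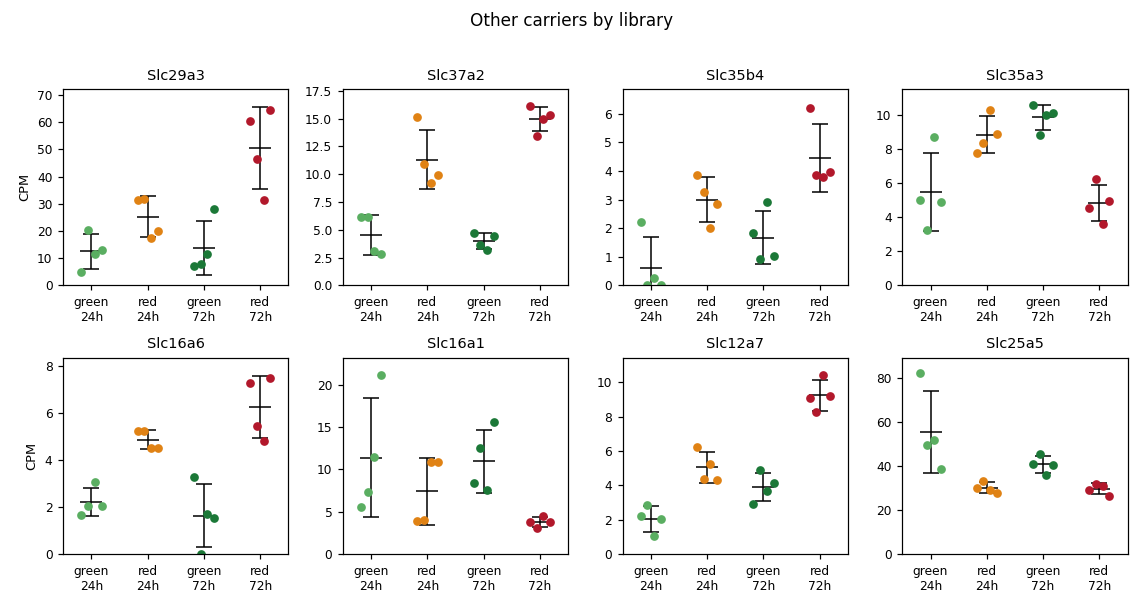
CPM (y axis, from 0, its scale differing between panels) of 8 carriers of nucleosides, sugars, nucleotide sugars, organic acids, ions and adenine nucleotides in each library, by group (x axis). Points are single libraries and the black marks the mean and SD of 4. Slc37a2 and Slc16a6 are higher and Slc25a5 lower in all red than in all green libraries, and Slc35a3 is higher in red at 24h and lower in red at 72h by group mean.

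Each time was also read alone. At 24h 5 members were higher (4.46%) and 1 lower (0.893%), against 3.20% and 4.30% of all tested genes and 3.40% and 5.20% of those past the count rule. These were Slc35b4, Slc37a2, Slc12a7, Slc43a2 and Slc3a2, and the fall of Slc25a5. The call of Slc3a2 at 24h held in 3 of 16 fits that leave out 1 library, and that at 72h in 8. With RLE scaling the 72h call of Slc3a2 was lost, and with no filter on low counts its 24h call was lost. Without Kaede-green 24h replicate 3 the count at 24h was 3, and 569 of all tested genes were called in place of 724. At 72h 13 members were higher (11.6%) and 6 lower (5.36%), against 8.07% and 8.76% of all tested genes and 9.69% and 10.2% of those past the count rule. Without Kaede-red 72h replicate 1, or without replicate 2, the count at 72h was 12 in place of 19. These fits called 1148 and 1325 of all tested genes in place of 1623. The falls at 72h included Slc9b1, Slc16a1, Slc35a3, Slc7a5 and Slc38a2. Slc9b1, a sodium and proton exchanger, was at 2.91, 6.70, 0.972 and 1.56 CPM in the green and 0.742, 0.755, 1.21 and 0.987 CPM in the red libraries at 72h (-1.72 ± 0.58 (SE), adjusted p = 0.0378). Its groups overlapped. Slc9b1 was not called without any 1 of Kaede-green 72h replicates 1 or 2 or Kaede-red 72h replicates 1, 2 or 4, and its difference was -0.98 without Kaede-green 72h replicate 2. With replicate number as a block Slc9b1 was not called either. By class the 72h calls were 6 higher and 2 lower amino acid carriers, 1 higher and 2 lower ion carriers, 2 higher and 1 lower Slc35 carriers, 1 higher and 1 lower carrier of other organic solutes, and 1 higher each among nucleoside carriers, sugar carriers and the genes that are no carriers, with none among metal or Slc25 carriers. Every red library was above every green one at 24h for 10 members (8.93%) and below for 3 (2.68%), against 7.07% and 5.44% of all tested genes. At 72h this held for 18 members above (16.1%) and 8 below (7.14%), against 13.0% and 9.52%. Over all 16 libraries it held for 4 above (3.57%) and 1 below (0.893%), against 1.19% and 1.74%.

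Kaede-green and Kaede-red cells were each read at 72h against 24h. Tumours collected at 72h were also older than those collected at 24h, so time since illumination and tumour age cannot be told apart. Kaede-green cells at 72h had entered at any time since illumination, and Kaede-red cells at 72h are those still present. Neither colour is therefore a fixed set of cells followed over time. In Kaede-green cells no member was called in edgeR's quasi-likelihood test, where 0% of all tested genes were. An unadjusted p under 0.05 was found for 11 members (9.82%), where 8.66% of all tested genes had one, and DESeq2 called 0 members and gave 13 of them no adjusted p. In Kaede-red cells 9 members were higher at 72h (8.04%) and 2 lower (1.79%), against 4.91% and 3.76% of all tested genes and 6.00% and 4.53% of those past the count rule. The 9 included Slc44a2, Slc29a3, Slc15a3, Slc12a7, Slc7a8, Slc6a6, Slc43a2 and Slc8a1. Slc15a3 (chr19:10839727-10859362), the lysosomal carrier of histidine and peptides, was 32.3, 43.7, 34.5 and 43.3 CPM in the green and 26.6, 29.3, 22.1 and 25.7 CPM in the red libraries at 24h, and 67.03, 54.5, 43.3 and 36.3 CPM in the green and 57.5, 43.8, 48.5 and 42.3 CPM in the red libraries at 72h. The red libraries at 72h were all above those at 24h (0.89 ± 0.20 (SE), adjusted p = 0.00484), while at 24h the red ones were all below the green ones. Slc15a3 overlaps Tmem132a. Slc44a2, a choline carrier, was 7.80, 15.5, 7.66 and 5.71 CPM in the green and 6.66, 6.07, 3.80 and 5.67 CPM in the red libraries at 24h, and 10.2, 14.9, 8.26 and 10.1 CPM in the green and 14.2, 14.4, 9.51 and 11.8 CPM in the red libraries at 72h (1.16 ± 0.25 (SE), adjusted p = 0.00463 in Kaede-red cells). Its red libraries at 72h were all above the red ones at 24h. The 2 lower were Slc25a33, a pyrimidine nucleotide carrier of mitochondria (1.23 to 4.61 CPM at 24h and 0.453 to 1.16 CPM at 72h in red libraries, -1.70 ± 0.47 (SE), adjusted p = 0.0214), and Slc35a3. Of the classes, amino acid carriers gave 4 of the 9 rises and ion carriers 3, and no metal carrier was called. When 1 library was left out the count of 11 became 2 to 15, with 2 without Kaede-red 72h replicate 1, 3 without Kaede-red 24h replicate 4, 4 without Kaede-red 24h replicate 3, 5 without Kaede-red 72h replicate 4, 6 without Kaede-red 72h replicate 2 and 7 without Kaede-red 24h replicate 2. In the same order these fits called 287, 328, 294, 395, 536 and 583 of all tested genes, where the main fit called 836. Slc15a3 and Slc44a2 were called in every one of the 16 fits that leave out 1 library, and Slc25a33 not without any 1 of Kaede-red 24h replicates 2, 3 or 4 or Kaede-red 72h replicates 1 or 2. Of the other rises in red cells, Slc8a1 was not called in 13 of the 16 fits, all but those without Kaede-green 24h replicate 2 or 4 or Kaede-green 72h replicate 4, nor with RLE scaling. Slc12a7 was not called without any 1 of Kaede-red 24h replicates 2, 3 or 4 or Kaede-red 72h replicates 1, 2, 3 or 4. Slc29a3 was not called without any 1 of Kaede-red 24h replicates 3 or 4 or Kaede-red 72h replicates 1, 2 or 4, nor by DESeq2. Slc7a8 was not called without any 1 of Kaede-red 24h replicates 3 or 4 or Kaede-red 72h replicates 1, 3 or 4, Slc43a2 without Kaede-red 24h replicate 4 or Kaede-red 72h replicate 1, and Slc6a6 without Kaede-red 72h replicate 1. The fall of Slc35a3 was not called without any 1 of Kaede-red 24h replicates 2, 3 or 4 or Kaede-red 72h replicates 1, 3 or 4. Nor was it called with no filter on low counts.

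A test of the interaction asked whether the difference between red and green cells itself changed from 24h to 72h. It called 1 member, Slc35a3 (0.893% of the members), where 0.767% of all tested genes were called. Slc35a3 (chr3:116669470-116712831), the Golgi carrier of UDP-N-acetylglucosamine, was 5.01, 3.27, 8.68 and 4.90 CPM in the green and 7.80, 8.38, 10.3 and 8.90 CPM in the red libraries at 24h, and 10.6, 8.83, 9.97 and 10.1 CPM in the green and 4.57, 6.21, 3.62 and 4.96 CPM in the red libraries at 72h. Red libraries tended to be above green ones at 24h, with overlap (0.63 ± 0.28 (SE), adjusted p = 0.195), and were all below them at 72h (-0.996 ± 0.26 (SE), adjusted p = 0.00599). The change of the difference was -1.62 ± 0.38 (SE), adjusted p = 0.0447, and it passed in 4 of the 16 fits that leave out 1 library, those without Kaede-green 24h replicate 3 or 4, Kaede-red 24h replicate 1 or Kaede-green 72h replicate 4. Slc35a3 overlaps Gm43191.

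The sorted cells expressed macrophage and monocyte markers in every library (10 genes, summed 1191 to 2668 CPM in green and 893 to 1871 CPM in red libraries). Of these 5 were called higher and 1 lower in red libraries of both times. Markers of fibroblasts summed to 40.3 to 52.6 CPM in green and 11.3 to 35.8 CPM in red libraries, with 3 collagen genes of the 6 lower. Markers of endothelial cells summed to 9.75 to 18.96 CPM and 17.7 to 36.6 CPM, with Kdr and Pecam1 higher and Cdh5 lower. Markers of neutrophils summed to 9.40 to 12.7 CPM in green and 9.59 to 22.9 CPM in red libraries, and those of dividing cells to 34.7 to 58.8 and 23.1 to 65.5 CPM. The lists for T and NK cells, B cells, dendritic cells, tumour epithelial cells and erythroid cells each summed to at most 11.3 CPM, with Csf3r of the neutrophil, Ccr7 of the dendritic cell and Cd4 of the T cell list called higher in red libraries. The neutrophil gene Ngp was at 0 in every library. In Kaede-red cells from 24h to 72h, 3 macrophage and monocyte markers and Csf3r were called higher. Called lower were 1 fibroblast and 2 dividing cell markers, where 4.91% of all tested genes were higher and 3.76% lower. At 72h alone 6 macrophage and monocyte, 1 neutrophil and 2 endothelial markers were higher in red libraries. Lower were 3 fibroblast and 2 dividing cell markers, where 8.07% of all tested genes were higher and 8.76% lower. The part of these markers in the carriers' differences was not tested.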

How the data were processed

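RNA of 16 sorted libraries, 4 in each of 4 groups, was sequenced after a stranded total RNA preparation. Per the submitters' notes and the study's methods, the authors trimmed reads with Trim Galore, checked them with FastQC, aligned them to mm10 with HISAT2 and deposited raw counts per gene from featureCounts. Tool versions, annotation and strand setting are not given in the sources used here, so reads of overlapping genes cannot be assigned. A combined table of the same counts was not used, and 0 columns of values were left unmapped. Counts were tested with edgeR 4.0.16 in R 4.3.3 (quasi-likelihood, TMM scaling, filterByExpr with a minimum count of 10, 1 mean per group, all 16 libraries, Benjamini-Hochberg adjustment over 9642 genes, threshold 0.05). CPM are TMM-scaled. Fold changes are those of the fit with edgeR's default prior, and each SE is the absolute log2 fold change over the square root of the test's F statistic. A prior count of 2 was used only for the log2 CPM behind the correlations of same-numbered libraries. The fit was tested on simulated data. No pair of libraries within a group agreed within sampling noise. DESeq2 1.42.0, other scalings and filters, the replicate block, the Rn45s share and leaving out each library were alternatives. The members, classes and gene lists were chosen with earlier results of these data known. Genes named were, by class, the up to 4 largest rises and falls called over both times and the same over all members in the other comparisons, the 10 highest levels per kilobase, a fixed set of carriers by role, and members at the edge of the count rule. Some genes that this rule names are not reported here. Gene positions and exon lengths are from GENCODE on GRCm38, the assembly of mm10, and promoter windows are from RefSeq on GRCm38.p6, with 87 members matched and 25 without a window. Depth per library is given as ranges in the results.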

Additional observations from a re-analysis of the deposited data

Results flagged for a closer look

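Dixon's criterion was applied to 212 groups of 4 values, in which chance alone would set about 1 in 20 apart. By it 12 single values stood apart from the other 3 of their group, near the share that chance would give. Slc35b4 was at 2.23 CPM in Kaede-green 24h replicate 1, where the others had 0 to 0.255 CPM, and at 6.21 CPM in Kaede-red 72h replicate 1, where the others had 3.77 to 3.95 CPM. In Kaede-green 24h replicate 4, Slc1a5 was at 8.16 CPM (others 3.27 to 3.34) and Slc9a3r1 at 3.67 CPM (others 9.19 to 10.03). Slc39a1 was at 21.0 CPM in Kaede-red 72h replicate 4 (others 29.7 to 31.4), and Slc3a2 at 30.2 CPM in Kaede-green 72h replicate 2 (others 34.03 to 34.25). Slc25a4 was at 8.58 CPM in Kaede-green 24h replicate 2 (others 11.1 to 11.4) and at 11.9 CPM in Kaede-red 72h replicate 3 (others 7.22 to 7.62). Slc7a6 was at 2.07 CPM in Kaede-red 72h replicate 1 (others 1.21 to 1.31), and Slc29a1 at 5.19 CPM in Kaede-green 72h replicate 4 (others 1.09 to 1.46). The summed CPM of all members was 964 in Kaede-red 72h replicate 1 (others 883 to 889), and that of the Slc35 carriers 74.1 in Kaede-green 24h replicate 1 (others 45.8 to 49.3).

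The difference between red and green cells changed from 24h to 72h for Slc35a3, by -1.62 on the log2 scale in the interaction term of edgeR's quasi-likelihood test (adjusted p = 0.0447). It is 0.893% of the members, where 0.767% of all tested genes were called. The call was not kept in 12 of 16 fits with 1 library left out, nor with the Rn45s share as a covariate or with scaling by library size alone.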

How the results depend on the processing

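Scaled by library size alone, which moved the median of all genes to 2.2, 112 members were called over both times, 111 at 24h, 103 at 72h, 0 between times in Kaede-red cells and 0 for the interaction. Under that scaling the log2 differences over both times turned positive for Slc16a1 (0.90), Slc7a5 (1.47), Slc25a5 (1.49), Slc7a6 (1.58), Slc1a5 (1.34), Slc38a2 (1.73), Slc38a9 (2.05), Slc15a3 (1.86), Slc25a4 (1.77), Slc25a3 (2.05), Slc25a37 (1.38), Slc25a28 (1.79), Slc30a1 (1.82), Slc39a1 (1.78), Slc31a2 (2.12) and Slc39a7 (2.03). So did Slc25a5 at 24h (1.48) and, at 72h, Slc9b1 (0.52), Slc16a1 (0.35) and Slc35a3 (1.00). With the Rn45s share as a covariate 1 member was called over both times, 0 at 24h, 1 at 72h, 1 between times in Kaede-red cells and 0 for the interaction, and the sign changed for Slc7a5 (0.074), Slc25a4 (0.079), Slc25a28 (0.011), Slc25a11 (-0.076), Slc31a1 (-0.090) and Slc39a7 (0.14). In the same order that fit called 156, 206, 102, 110 and 34 of all tested genes, where the main fit called 1950, 724, 1623, 836 and 74. With at least 10 counts in every library 25 members were tested and 7 were called over both times, 3 at 24h, 9 at 72h and 0 for the interaction, from fewer genes tested, while Slc25a3 (0.053) and Slc31a2 (0.036) changed sign, as they did with no filter (0.087 and 0.070). Slc7a11 was at -0.027 with DESeq2 and -0.029 with RLE factors, and DESeq2 called 2 members for the interaction and, over both times, 24, with 9 at 24h, 21 at 72h and 13 between times in Kaede-red cells. In the same order DESeq2 called 321, 2308, 939, 1997 and 1263 of all tested genes. It gave no adjusted p to 47 members for the interaction and to 2 between times in Kaede-red cells. Leaving out 1 library gave 16 to 22 members over both times, 3 to 8 at 24h, 12 to 21 at 72h, 0 between times in Kaede-green cells, 2 to 15 in Kaede-red cells and 0 to 2 for the interaction. In the same order it gave 1583 to 2087, 502 to 769, 1148 to 1910, 0 to 2, 287 to 1109 and 2 to 155 of all tested genes. Over both times leaving out 1 library gave -0.086 to 0.072 for Slc7a11, -0.027 to 0.33 for Slc38a1, -0.12 to 0.040 for Slc25a3, -0.060 to 0.14 for Slc31a1 and -0.14 to 0.082 for Slc31a2. Apart from construction as stated, the cause was not tested. Same-numbered libraries did not deviate together (correlations of 8 pairs -0.0183 to 0.153, 1 over 0.1, and 2 of 8 best with their own number), and the sources do not tie the numbers to mice, so they were not taken as pairs. With the replicate block 20 members were called over both times, 6 at 24h, 18 at 72h, 0 between times in Kaede-green cells, 12 in Kaede-red cells and 1 for the interaction. Counts under 10 in many green libraries limit what can be seen of low carriers there.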
